A study of Homo sapiens with 15 samples.

Results

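Receptor tyrosine kinases are the single-pass membrane receptors for growth factors such as insulin, stem cell factor, the epidermal, fibroblast and vascular endothelial growth factors and the ephrins. A bound ligand brings receptor chains together, the kinase domains phosphorylate each other on tyrosine, and adaptor proteins dock on these phosphotyrosines to start RAS, PI3 kinase and phospholipase C signalling. Several receptors of the family, ERBB2 among them, are known as proteins that HSP90 folds and stabilises, and KIT is known in blood for its role in progenitors and mast cells. The 50 genes described here were chosen by name as members of the family, with no threshold on their values. All 50 were listed in the resistance table of 60510 genes, and 25 of the 50 were listed in the knockout table of 17769 genes.

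K562 is an established chronic myeloid leukaemia cell line that carries the BCR-ABL1 fusion. The knockout experiment held 3 groups of 3 libraries each: cells transduced with lentivirus for Cas9 and a guide RNA against HSP90α (HSP90α-KO), the same against HSP90β (HSP90β-KO), and empty vector cells (EV), all of them, by the sample labels, sorted on a fluorescent marker and taken through monoclonal selection. The resistance experiment held 2 groups of 3 libraries each: cells kept in rising amounts of the HSP90 inhibitor PU-H71 until resistant (PUHr), and parental cells carried along with DMSO; both were selected as clones. The labels do not say how many clones stand behind a group or whether its libraries came from separate cultures. The paper describes 3 independent replicates for HSP90α-KO against EV and for PUHr against parental cells. P-values measure only the spread between these libraries. A difference between clones and an effect of the knockout or the drug cannot be told apart.

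Captured mRNA was sequenced as single reads from a stranded kit, and each library held between 19594381 and 26216730 reads on genes. One read was worth 0.0381 to 0.0518 CPM, the unit that puts the reads of each library on a common scale. HSP90AA1, which encodes HSP90α, was at 704 ± 18.7 CPM (SD, n = 3) in EV, 90.4 ± 2.34 in HSP90α-KO and 1206 ± 14.2 in HSP90β-KO. HSP90AB1, which encodes HSP90β, was at 2806 ± 21.1 CPM in EV, 3307 ± 38.8 in HSP90α-KO and 1913 ± 25.1 in HSP90β-KO, a smaller drop than that of HSP90AA1 (log2 fold change -0.55 in HSP90β-KO against -2.96 for HSP90AA1 in HSP90α-KO). In the resistance table HSP90AA1 was at 1712 ± 14.1 CPM in parental and 1568 ± 21 in PUHr libraries. The erythroid transcripts that mark K562 were present, with summed levels of 1052 to 1069 CPM in EV, 944 to 972 in HSP90α-KO, 935 to 949 in HSP90β-KO, 3077 to 3112 in parental and 2339 to 2422 in PUHr. The knockouts were thus below EV, and PUHr below parental, in every library. By adjusted p, 6 of the 11 markers tested in each comparison were lower and 4 higher in HSP90α-KO (HBG2, a fetal globin, by -1.22 and HBZ, an embryonic globin, by -1.04 in log2 fold change), 7 lower in HSP90β-KO, and 6 lower and 3 higher in PUHr. Their part in the receptor changes was not tested. In the bulk libraries, fewer cells with a transcript and less of it per cell cannot be told apart.

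A gene was tested where it reached a log2 CPM of -1 in at least 3 libraries of its table, which took 17039 and 16503 genes. Below, a transcript rose or fell where limma's test gave a Benjamini-Hochberg adjusted p under 0.05 over all tested genes with a log2 fold change beyond 1 in size; smaller changes with an adjusted p under 0.05 are named as such. All 25 receptors listed in the knockout table were tested, and 27 of the 50 in the resistance table. The other 23 in the resistance table were too low: EPHA5, EPHA7, RET and MUSK had 0 reads in every library, and ALK, EPHA3, EPHA8, EPHB1, EPHB3, FGFR2, FLT3, NTRK2, NTRK3 and ROS1 had at most 3 reads in any library. CSF1R, EGFR, EPHA4, EPHB2, ERBB4, FLT4, PDGFRA, PDGFRB and TEK had more than 3 reads in some library, and 13 at most. EGFR, the best known drug target of the family, had 0, 1 and 1 reads in parental and 4, 0 and 2 in PUHr libraries. A count of 0 allows up to 3 reads. Reads carry no molecular identifiers, so intervals and limits on read numbers cover counting error only.

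The 250 bases before the RefSeq start are printed for some of the receptors described below. KIT and IGF1R moved in opposite directions in HSP90α-KO, and EPHB6 rose there and fell in PUHr. ROR1 and KDR went from near 0 reads to clear expression in PUHr. Sequences are RefSeq's for GRCh38.p14, each read 5′ to 3′ along the gene's own strand, and capitals mark every match on either strand of GGGCGG, the letters of the GC box, and GAANNTTC, the paired core of the heat shock element.
KIT: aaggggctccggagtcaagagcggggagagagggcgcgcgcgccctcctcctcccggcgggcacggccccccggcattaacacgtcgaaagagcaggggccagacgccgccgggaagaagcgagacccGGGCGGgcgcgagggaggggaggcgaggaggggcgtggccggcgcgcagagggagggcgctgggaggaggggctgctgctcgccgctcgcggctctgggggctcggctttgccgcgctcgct
IGF1R: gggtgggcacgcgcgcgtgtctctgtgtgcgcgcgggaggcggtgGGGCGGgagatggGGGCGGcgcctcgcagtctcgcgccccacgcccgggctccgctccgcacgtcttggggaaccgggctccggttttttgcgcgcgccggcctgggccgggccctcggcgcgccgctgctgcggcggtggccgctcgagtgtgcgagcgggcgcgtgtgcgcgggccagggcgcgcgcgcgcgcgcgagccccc
EPHB6: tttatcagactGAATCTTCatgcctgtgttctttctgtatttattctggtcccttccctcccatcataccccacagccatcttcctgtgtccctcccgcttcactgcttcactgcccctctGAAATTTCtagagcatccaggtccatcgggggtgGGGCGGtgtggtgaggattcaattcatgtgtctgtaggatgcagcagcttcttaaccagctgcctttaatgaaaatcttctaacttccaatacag
ROR1: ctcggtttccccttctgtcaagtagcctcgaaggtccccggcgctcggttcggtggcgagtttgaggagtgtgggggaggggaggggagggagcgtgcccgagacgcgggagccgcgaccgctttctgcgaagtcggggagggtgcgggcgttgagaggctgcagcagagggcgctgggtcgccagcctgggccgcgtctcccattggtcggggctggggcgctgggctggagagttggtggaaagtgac
KDR: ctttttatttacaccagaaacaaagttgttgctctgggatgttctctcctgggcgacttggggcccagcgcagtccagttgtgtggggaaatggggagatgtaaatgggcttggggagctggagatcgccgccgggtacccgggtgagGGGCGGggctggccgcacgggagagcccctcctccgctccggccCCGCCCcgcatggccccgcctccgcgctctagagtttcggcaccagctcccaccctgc
The windows lie at chr4:54657707-54657956 (KIT, plus strand), chr15:98648289-98648538 (IGF1R, plus), chr7:142862506-142862755 (EPHB6, plus), chr1:63773767-63774016 (ROR1, plus) and chr4:55125596-55125845 (KDR, minus).

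The IGF1R window held 48 CG dinucleotides, more than in 99.7% of the 35116 windows of this length, and KIT followed with 34, ROR1 with 24 and KDR with 17, against a median of 11 over all windows. The EPHB6 window held 3 CG dinucleotides. The EPHB6 and KIT windows lie inside the genes as GENCODE draws them, downstream of the first annotated starts (142855061 for EPHB6 and 54657267 for KIT), and which start the cells used was not measured. GAANNTTC occurred at 2 places in the EPHB6 window and in none of the other windows printed. It was in 5.13% of the 78 windows of the 47 receptors with a window in the table (ALK, ERBB2 and FGFR2 besides EPHB6) and in 5.78% of all windows. GGGCGG was in 62.8% of the 78 receptor windows and in 42.6% of all windows. AGATAA, the letters bound by GATA factors, was in none of the windows printed and in 9.17% of all windows. A match is a run of letters only; whether a factor binds there was not measured.

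In EV cells the receptor transcripts spanned from over 100 CPM to single reads. Per kilobase of exon the highest level was that of PTK7, a receptor of WNT and planar polarity signalling without kinase activity, at 10.4 ± 0.403 CPM per kb. FGFR1, a receptor for fibroblast growth factors, followed at 7.01 ± 0.13, then IGF1R, the receptor for insulin-like growth factors, at 5.94 ± 0.153 and FGFR4 at 5.86 ± 0.217. IGF1R and FGFR4 did not differ beyond their spread, nor did EPHB4, at 5.22 ± 0.14, and ROR2, at 5.02 ± 0.196. In reads, PTK7 had 1911, 2022 and 2402 in EV, 1656, 1519 and 1468 in HSP90α-KO and 2261, 2592 and 2700 in HSP90β-KO. In CPM its HSP90α-KO libraries were below and its HSP90β-KO libraries above those of EV. KIT was in seventeenth place at 0.804 ± 0.0334 CPM per kb, and the lowest 6 (FLT1, INSR, TIE1, EPHB6, ERBB4 and FLT4) were all under 0.06.

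**Figure D1:**
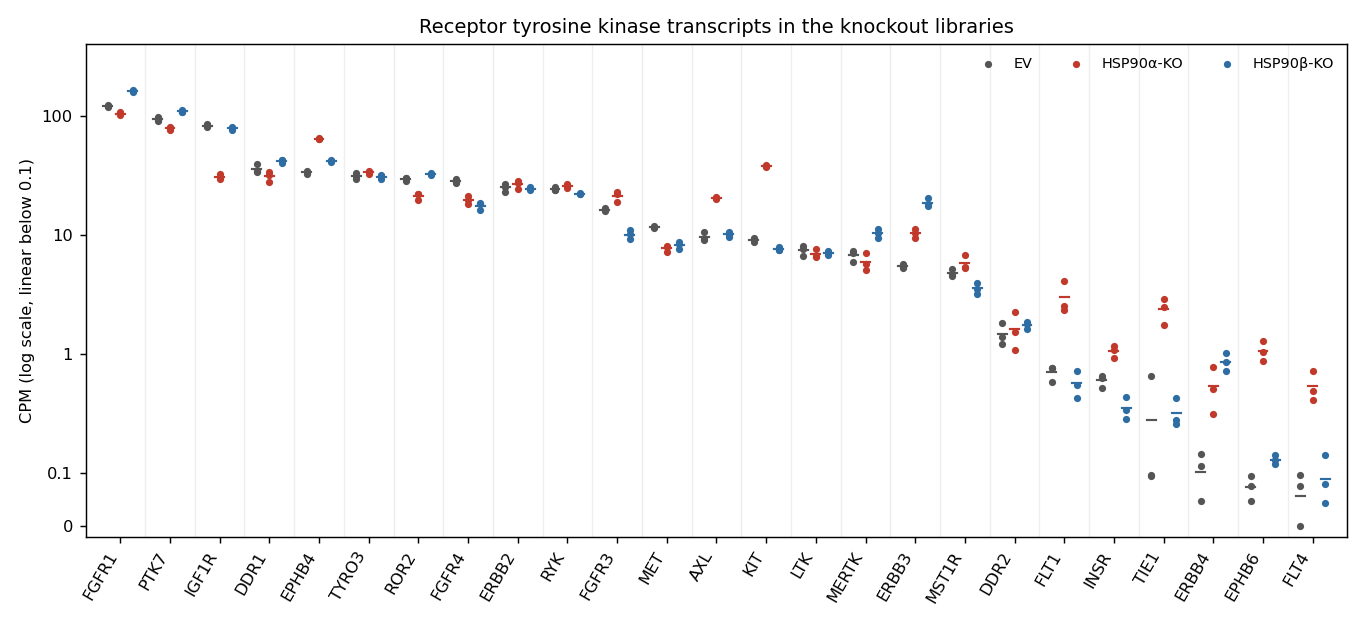
Level of the 25 listed receptors in the knockout libraries, in CPM on a log scale that is linear below 0.1; each point is 1 library, each short line the mean of 3, and genes are ordered by their mean in EV. KIT and AXL stand above and IGF1R below the other groups in HSP90α-KO, and ERBB3 is highest in HSP90β-KO.

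In HSP90α-KO against EV, 8 of the 25 receptors changed, or 32%, where 10.3% of all tested genes did (5.32% higher and 5.01% lower): TIE1, EPHB6, FLT4, KIT, FLT1, ERBB4 and AXL rose and IGF1R fell. The count includes EPHB6 and FLT4, which reached the test's minimum in HSP90α-KO only and so had to differ. ERBB4, also counted, reached it only outside EV, and its HSP90β-KO libraries alone were enough for it to be tested. Of the 22 that reached it in both groups, 4 rose and 1 fell. One of these 4, TIE1, reached it in EV through replicate 3 alone. Outside HSP90α-KO only that library and HSP90β-KO replicate 1 reached it, so TIE1 was tested only because of its HSP90α-KO libraries. By adjusted p alone 18 of 25 passed, 11 higher and 7 lower, beside 54.2% of all tested genes (27.5% higher and 26.6% lower). With voom 23.9% of all genes were higher and 30.4% lower, with 11 receptors higher and 7 lower. The median log2 fold change was 0.10 over the 25 and -0.01 over all tested genes. Of the lymphocyte markers, CD3E fell from 3.37 to 0.437 CPM in HSP90α-KO and CD3D rose from 4.76 to 11.5 in HSP90β-KO, and the epithelial keratin KRT19 was at 49.4 CPM in EV, 92.8 in HSP90α-KO and 34.1 in HSP90β-KO; their part in the receptor changes was not tested.

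KIT, the receptor for stem cell factor, had 183, 196 and 241 reads in the EV libraries, 784, 716 and 730 in HSP90α-KO and 158, 184 and 188 in HSP90β-KO. Every HSP90α-KO library lay far above the other groups. The level went from 9.11 ± 0.378 to 37.6 ± 0.602 CPM, a 4.1-fold rise (log2 fold change 2.04, SE 0.069, limma adjusted p = 5.1e-19), and KIT moved from seventeenth place in level per kilobase to ninth, where it did not differ beyond the spread from its neighbours DDR1, at 3.43 ± 0.336 CPM per kb, and RYK, at 3.16 ± 0.122. KIT (chr4:54657267-54740783, plus strand) overlaps no other annotated gene, and of 37 tested genes within 5 Mb of it 1 had a larger log2 fold change, with a median of 0.00. MS4A2, a chain of the mast cell IgE receptor, had 0 to 4 reads in EV and 132 to 145 in HSP90α-KO libraries, and it reached the test's minimum there only and so had to differ; of the 7 mast and myeloid markers only it and ITGAM are listed in the knockout table, and ITGAM was at 118 CPM in EV and 98.1 in HSP90α-KO. Its part in the KIT result was not tested.

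IGF1R, the one receptor that fell, had 1691, 1729 and 2218 reads in EV, 629, 568 and 629 in HSP90α-KO and 1596, 1880 and 1996 in HSP90β-KO. The HSP90α-KO libraries were far below both other groups. The level dropped from 82.8 ± 2.13 to 30.8 ± 1.43 CPM, a 2.68-fold fall (log2 fold change -1.42, SE 0.043, adjusted p = 4.7e-20). Of the 43 tested genes within 5 Mb, 41 had a higher log2 fold change and their median was -0.17. INSR, the insulin receptor, went the other way at a low level, with 11, 13 and 17 reads in EV and 24, 18 and 21 in HSP90α-KO (log2 fold change 0.74, SE 0.26, adjusted p = 0.021). That difference was lost on leaving out EV replicate 1, HSP90α-KO replicate 1 or HSP90α-KO replicate 3, with adjusted p of 0.07, 0.072 and 0.052.

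AXL, a receptor for the vitamin K-dependent ligand GAS6, had 191, 220 and 240 reads in EV, 410, 403 and 393 in HSP90α-KO and 202, 234 and 268 in HSP90β-KO. HSP90α-KO was apart from both other groups, and the level rose 2.11-fold from 9.61 ± 0.86 to 20.4 ± 0.459 CPM (log2 fold change 1.08, SE 0.077, adjusted p = 4.3e-12). The related TYRO3 and MERTK did not pass the test, with log2 fold changes of 0.10 and -0.19.

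TIE1, FLT1 and FLT4, receptors of blood vessel growth, had at most 20 reads in any EV library and rose in HSP90α-KO, whereas KDR and TEK are not listed in the knockout table. TIE1, an orphan receptor of endothelium and blood progenitors, had 2, 2 and 17 reads in EV, 36, 56 and 48 in HSP90α-KO and 9, 6 and 7 in HSP90β-KO; EV replicate 3 stood apart from the other EV libraries. Its log2 fold change in HSP90α-KO was 3.04 (SE 0.39, adjusted p = 2.1e-07), and 3.70 without EV replicate 3. FLT1, a receptor for VEGFA and placental growth factor, had 16, 12 and 20 reads in EV, 48, 49 and 79 in HSP90α-KO and 15, 10 and 14 in HSP90β-KO (log2 fold change against EV 1.92, SE 0.25, adjusted p = 2.1e-07). FLT4, the receptor for VEGFC, had 0, 2 and 2 reads in EV, 10, 14 and 8 in HSP90α-KO and 3, 1 and 2 in HSP90β-KO; its rise in HSP90α-KO rests on 32 reads against 4, a ratio of 9.18 with a counting interval of 3.26 to 35.7. None of these HSP90α-KO libraries overlapped EV, and TIE1 and FLT4 were tested only because of them. Of the 6 endothelial markers, ESAM, PECAM1 and CLDN5 are listed in the knockout table, and their summed level was 0.496 to 0.868 CPM in EV and 1.75 to 2.49 in HSP90α-KO, where PECAM1 went from 2 to 4 reads to 17 to 24 and reached the test's minimum in HSP90α-KO only, so that it had to differ. CDH5, ROBO4 and VWF were not analysed in that table, and the part of these markers in the receptors' rise was not tested.

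EPHB6, an ephrin receptor without kinase activity, had 2, 1 and 2 reads in EV, 21, 17 and 25 in HSP90α-KO and 3, 3 and 3 in HSP90β-KO. The HSP90α-KO libraries stood apart from both, with a ratio to EV of 14.5 and a counting interval of 5.88 to 46.1 (log2 fold change 2.81, SE 0.35, adjusted p = 1.2e-07, on a scale that depends on the prior count at such levels). EPHB6 reached the test's minimum in HSP90α-KO only and so had to differ. EPHB4, the receptor for ephrin B2, was much higher in absolute terms and ran from 685, 704 and 899 reads in EV to 1319, 1230 and 1231 in HSP90α-KO. Its log2 fold change of 0.92 (SE 0.043, adjusted p = 4.7e-16) stayed under the threshold of 1, and EPHB4 became the highest receptor per kilobase in HSP90α-KO, at 9.91 ± 0.0931 CPM per kb ahead of PTK7 at 8.71 ± 0.307.

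Among receptors that passed by adjusted p alone in HSP90α-KO, ERBB3 (0.90), EPHB4, INSR and FGFR3 (0.38) were higher, and MET (-0.59), FGFR4 (-0.53), ROR2 (-0.47), PTK7 (-0.25), FGFR1 (-0.21) and DDR1 (-0.20) were lower, in log2 fold change. DDR1, a collagen receptor, had 715, 809 and 904 reads in EV, 697, 616 and 545 in HSP90α-KO and 845, 998 and 1078 in HSP90β-KO, and its difference in HSP90α-KO was lost without EV replicate 2 or HSP90α-KO replicate 3, with adjusted p of 0.085 and 0.09. ERBB2, RYK, LTK, DDR2, MST1R, TYRO3 and MERTK did not pass.

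In HSP90β-KO against EV, 2 of the 25 receptors changed, both upwards, where 4.48% of all tested genes did (1.83% higher and 2.65% lower). One of them, ERBB4, reached the test's minimum only outside EV, and of the 22 receptors that reached it in both groups 1 rose. By adjusted p alone 12 passed, 7 higher and 5 lower, beside 34.4% of all (17.2% in each direction). That split of all genes depended on the scaling, with 12.5% higher and 21.6% lower after median centring and 22.4% and 15.5% with voom, where the receptors stood at 7 higher and 8 lower, and 8 and 5. The median log2 fold change was 0.07 over the 25 and 0.00 over all tested genes. Both tested megakaryocyte markers were lower in HSP90β-KO, GP1BA (-0.59, limma adjusted p = 0.0016) and ITGA2B (-0.45, adjusted p = 5.7e-05). Their part in the receptor changes was not tested. Both receptors that rose bind neuregulins. ERBB3, which signals through its partner ERBB2 and recruits PI3 kinase, had 111, 118 and 142 reads in EV, 380, 475 and 444 in HSP90β-KO and 213, 180 and 216 in HSP90α-KO. The 3 groups did not overlap, with EV lowest and HSP90β-KO highest. ERBB3 went from 5.46 ± 0.209 to 18.7 ± 1.42 CPM in HSP90β-KO, a 3.37-fold rise (log2 fold change 1.75, SE 0.086, adjusted p = 7e-15), and to 10.3 ± 0.889 in HSP90α-KO (adjusted p = 1.5e-09).

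ERBB4, the other neuregulin receptor, had 1, 3 and 3 reads in EV, 18, 24 and 18 in HSP90β-KO and 16, 6 and 10 in HSP90α-KO. Both knockouts lay above EV in every library, and ERBB4 reached the test's minimum only outside EV. The ratio to EV was 8.37 with a counting interval of 3.82 to 21.7 in HSP90β-KO and 5.25 with an interval of 2.27 to 14.1 in HSP90α-KO (adjusted p = 4.4e-06 and 0.00018), and the knockouts did not differ from each other by the test (log2 fold change -0.67, interval -1.37 to 0.03, adjusted p = 0.094). Around ERBB4 on chromosome 2, none of the 31 tested genes within 5 Mb was above ERBB4 in HSP90β-KO, and their median change was -0.55 in log2 units. ERBB2 itself, at 25 ± 1.77 CPM in EV, 26.7 ± 2.21 in HSP90α-KO and 24.4 ± 0.708 in HSP90β-KO, did not pass the test in either knockout.

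Other receptors in HSP90β-KO that passed by adjusted p alone moved little: MERTK (0.61), FGFR1 (0.41), EPHB4 (0.31), DDR1 (0.23) and PTK7 (0.22) were higher and FGFR3 (-0.69), FGFR4 (-0.68), MET (-0.50), MST1R (-0.43) and KIT (-0.26) lower in log2 fold change. MST1R lost this without EV replicate 2 or HSP90β-KO replicate 3, with adjusted p of 0.05 and 0.059. TIE1 did not pass (0.46, adjusted p = 0.4), but did on leaving out EV replicate 3 (1.12, adjusted p = 0.011). FGFR1 was the receptor with the most reads in HSP90β-KO, with 3369, 3670 and 4153, against 2520, 2465 and 3229 in EV and 2187, 2035 and 1969 in HSP90α-KO.

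**Figure D2:**
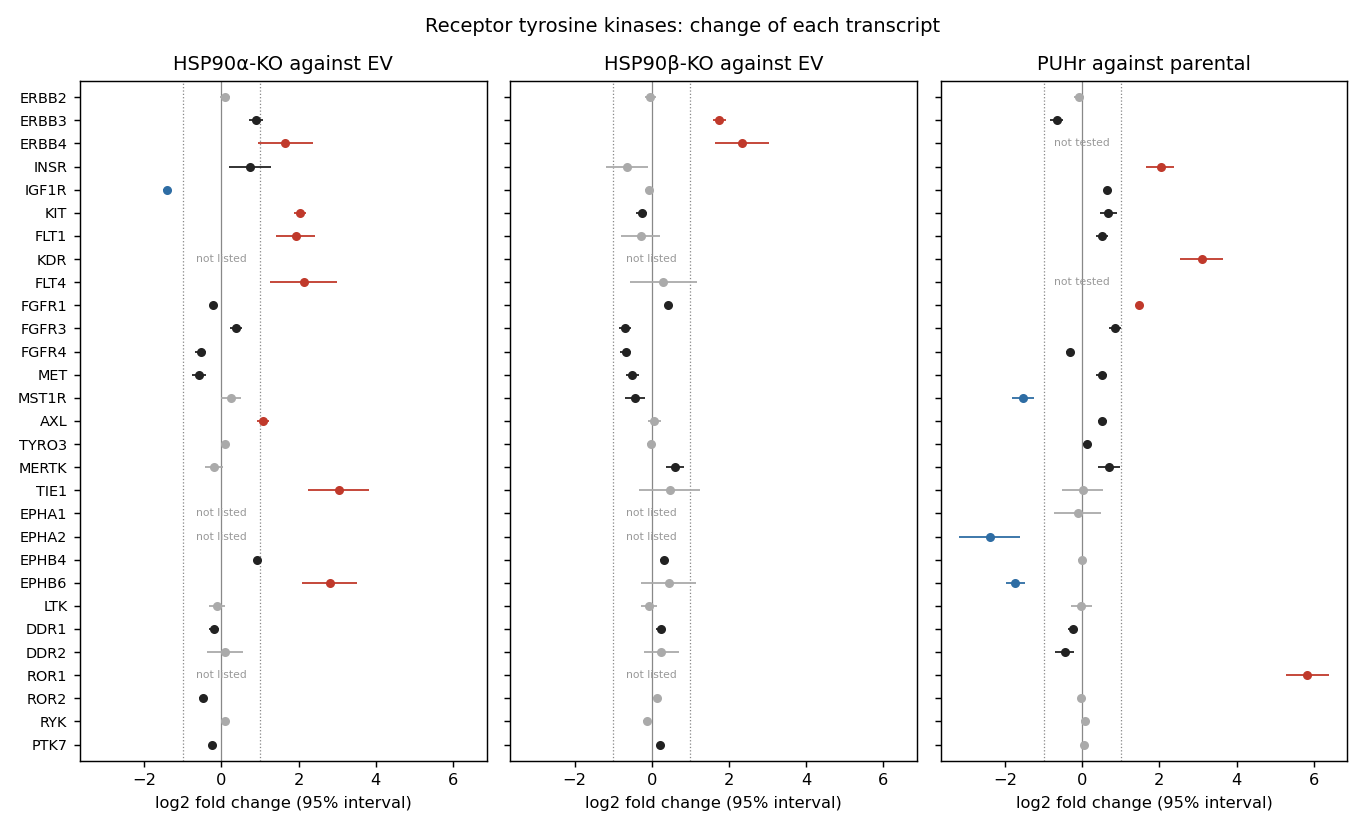
Log2 fold change with its 95% interval for each receptor tested in at least 1 table; red rose, blue fell, black passed by adjusted p alone and grey did not pass, and dotted lines mark the threshold of 1. EPHB6 is far to the right in HSP90α-KO and to the left in PUHr, and ROR1 has the largest change, 5.83, in PUHr.

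The knockouts were also set against each other in the same fit, which tests the difference itself. Of the 25 receptors, 8 were higher and 1 lower in HSP90α-KO than in HSP90β-KO, where 12.7% of all tested genes changed (7.14% higher and 5.57% lower). EPHB6 and FLT4 reached the minimum in HSP90α-KO but not in HSP90β-KO and so had to differ, and of the 23 that reached it in both, 6 were higher and 1 lower. Of these 6, TIE1 and INSR reached it in HSP90β-KO in 1 library alone, replicate 1 for TIE1 and replicate 3 for INSR. TIE1 was tested only because of its HSP90α-KO libraries. By adjusted p alone 12 were higher and 7 lower, beside 59.9% of all (30.1% higher and 29.8% lower). After median centring 33.7% of all genes were higher and 26% lower, with 14 receptors higher and 7 lower. With voom 25% were higher and 35.9% lower, with 11 receptors higher and 8 lower. The difference was 2.29 for KIT (SE 0.069, adjusted p = 2.4e-20), 2.58 for TIE1, 2.37 for EPHB6, 2.21 for FLT1, 1.83 for FLT4, 1.38 for INSR, 1.08 for FGFR3 and 1.01 for AXL in log2 units, and -1.35 for IGF1R (SE 0.043, adjusted p = 8.4e-20). ERBB3 was lower in HSP90α-KO than in HSP90β-KO by adjusted p alone, with -0.86 (SE 0.086, adjusted p = 2.6e-09). AXL lay on the threshold and fell below it without HSP90α-KO replicate 2 or HSP90β-KO replicate 1, its lowest value on leaving out a library being 0.98. FGFR3 is the receptor whose activating mutations cause achondroplasia, and it had 352, 331 and 424 reads in EV, 468, 429 and 369 in HSP90α-KO and 192, 237 and 276 in HSP90β-KO, so the knockouts lay on opposite sides of EV in CPM.

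In PUHr against parental cells, 7 of the 27 tested receptors changed, or 25.9%, where 10.1% of all tested genes did (5.37% higher and 4.69% lower): ROR1, KDR, INSR and FGFR1 rose and EPHA2, EPHB6 and MST1R fell. ROR1, KDR and EPHA2 reached the test's minimum in 1 of the groups only and so had to differ; of the 24 that reached it in both, 2 rose and 2 fell. By adjusted p alone 19 of 27 passed, 12 higher and 7 lower, beside 51.4% of all tested genes (25.6% higher and 25.8% lower). Here too the split of all genes moved, to 21.3% higher and 31.5% lower after median centring and 32.3% and 20% with voom, where the receptors stood at 11 higher and 7 lower, and 14 and 7. The median log2 fold change was 0.04 over the 27 and 0.00 over all. Markers of other cell types moved as well. Of 4 tested megakaryocyte markers, 2 were higher and 1 lower by adjusted p. ITGA2B fell by 1.11 on the log2 scale, and ITGB3 was higher by 0.89 (limma adjusted p = 0.00071). PPBP, also of platelets, had 2 to 10 reads in parental and 28 to 32 in PUHr. The epithelial marker EPCAM fell by 1.50. Of 3 tested fibroblast markers, 1 was higher and 1 lower by adjusted p. COL1A2, a fibrillar collagen chain, had 116 to 137 reads in parental and 1 to 5 in PUHr, reaching the test's minimum in parental only. COL1A1 was higher by 0.42 (adjusted p = 0.0044). Their part in the receptor changes was not tested.

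FGFR1 had 2045, 2027 and 1760 reads in parental and 5836, 5664 and 5197 in PUHr libraries. All 3 PUHr libraries were at 231 to 237 CPM and all parental ones at 82.5 to 86.4, which is a 2.76-fold rise (log2 fold change 1.47, SE 0.028, limma adjusted p = 1.7e-14). Of the 54 tested genes within 5 Mb on chromosome 8, 3 had a larger log2 fold change and the median was 0.03. FGFR1 overlaps LETM2 and 3 other annotated genes, and reads of overlapping genes may be mixed because the strand setting of the counting is not given in the sources used here. FGFR3 was also higher, at 39.7, 34.8 and 35.4 CPM in parental and 59.8, 76.4 and 62.5 in PUHr (log2 fold change 0.85, SE 0.075, adjusted p = 2.5e-07), below the threshold of 1, whereas FGFR4 was lower by 0.31. FGFR1 was sixth per kilobase in parental cells, at 4.92 ± 0.115 CPM per kb. In PUHr it stood level with FGFR3, at 13.6 ± 0.164 and 13.7 ± 1.84, ahead of EPHB4 at 8.07 ± 0.216.

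ROR1, a WNT5A receptor of the embryo that is also found on leukaemic B cells, had 0, 0 and 1 reads in parental and 150, 114 and 135 in PUHr libraries. The groups lay far apart, at 399 reads against 1 in sum, a ratio of 385 with a counting interval of 68.7 to 15251. The fitted log2 fold change of 5.83 (SE 0.26, adjusted p = 1.2e-10) depends on the prior count. The receptor reached the test's minimum in PUHr only and so had to differ. ROR1 (chr1:63774017-64181498, plus strand) overlaps ROR1-AS1 and 4 other genes, none on its own strand, and the 34 tested genes within 5 Mb had a median log2 fold change of 0.04 with none above ROR1. ROR2, its paralogue, was already high at 42.2 ± 1.75 CPM in parental and 41.3 ± 0.851 in PUHr, and did not pass the test.

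KDR, the main signalling receptor for VEGFA, had 2, 3 and 3 reads in parental and 36, 43 and 37 in PUHr libraries, with no overlap and a ratio of 14 (counting interval 6.87 to 33.2; log2 fold change 3.09, SE 0.26, adjusted p = 1.4e-07). KDR reached the test's minimum in PUHr only and so had to differ. FLT1 was higher by 0.52 (SE 0.074, adjusted p = 3.7e-05), and TIE1 did not pass (0.01). Of the endothelial markers, ESAM, a junction protein of endothelium and platelets, rose from 18 to 27 reads to 827 to 930. VWF had 2 to 6 reads in parental and 27 to 35 in PUHr, reaching the test's minimum in PUHr only. The summed level of the 6 was 1.48 to 1.64 CPM in parental and 38.7 to 40.9 in PUHr, of which ESAM alone made up 1.01 and 37.5 CPM on average. The defining endothelial markers CDH5 and ROBO4 had 0 reads in every library of the table. TEK, the angiopoietin receptor, had 0, 3 and 2 reads in parental and 4, 5 and 2 in PUHr.

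INSR had 25, 37 and 23 reads in parental and 129, 110 and 132 in PUHr libraries. The groups did not overlap, and the level rose 4.07-fold from 1.23 ± 0.28 to 5.22 ± 0.637 CPM (log2 fold change 2.03, SE 0.17, adjusted p = 1.6e-07). IGF1R, its relative, was at 45.5, 45.8 and 45.8 CPM in parental and 70.9, 70.1 and 71 in PUHr, higher by 0.63 (SE 0.033, adjusted p = 9e-10) and under the threshold. KIT (0.68), MERTK (0.70), AXL (0.52), MET (0.50) and TYRO3 (0.12) were likewise higher by adjusted p alone, and ERBB3 (-0.66), DDR2 (-0.45) and DDR1 (-0.25) lower. TYRO3 lost this under 8 of its alternatives, among them leaving out any 1 parental library or PUHr replicate 1 (adjusted p = 0.059 to 0.12).

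EPHB6 had 444, 465 and 363 reads in parental and 168, 123 and 106 in PUHr libraries. The groups did not overlap, and the level fell 3.33-fold from 18.4 ± 1.27 to 5.54 ± 1.07 CPM (log2 fold change -1.73, SE 0.11, adjusted p = 8.7e-09). The parental libraries thus held EPHB6 at a level well over the 1 to 2 reads of the EV libraries, though the tables were normalised separately and were not tested against each other. MST1R, the receptor for macrophage-stimulating protein, had 162, 144 and 140 reads in parental and 60, 43 and 54 in PUHr and fell 2.89-fold (log2 fold change -1.53, SE 0.14, adjusted p = 3e-07), while its relative MET was higher by 0.50.

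EPHA2, a receptor for ephrin A1, had 19, 11 and 21 reads in parental and 1, 1 and 3 in PUHr, a ratio of parental to PUHr of 10.6 with a counting interval of 4.24 to 33.9 (log2 fold change -2.40, SE 0.36, adjusted p = 5.9e-05). EPHA2 reached the test's minimum in parental cells only and so had to differ. Its 86 tested neighbours within 5 Mb on chromosome 1 had a median log2 fold change of -0.44, and 82 of them were above EPHA2. Among ephrin receptors too low to be tested, EPHA4 had 10, 13 and 8 reads in parental and 1, 0 and 0 in PUHr libraries, a ratio of 32.1 with an interval of 5.35 to 1309, and EPHB2 had 4, 4 and 8 against 1, 1 and 2, a ratio of 4.14 with an interval of 1.34 to 17. EPHB4, by contrast, was at 53.7, 52.7 and 50.9 CPM in parental and 50.6, 53.4 and 52 in PUHr, a log2 fold change of -0.01 with an interval of -0.10 to 0.07. PTK7 likewise overlapped between the groups, at 61.5, 58.4 and 61.5 CPM in parental and 64.6, 60.4 and 61.4 in PUHr, and did not pass the test.

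**Figure D3:**
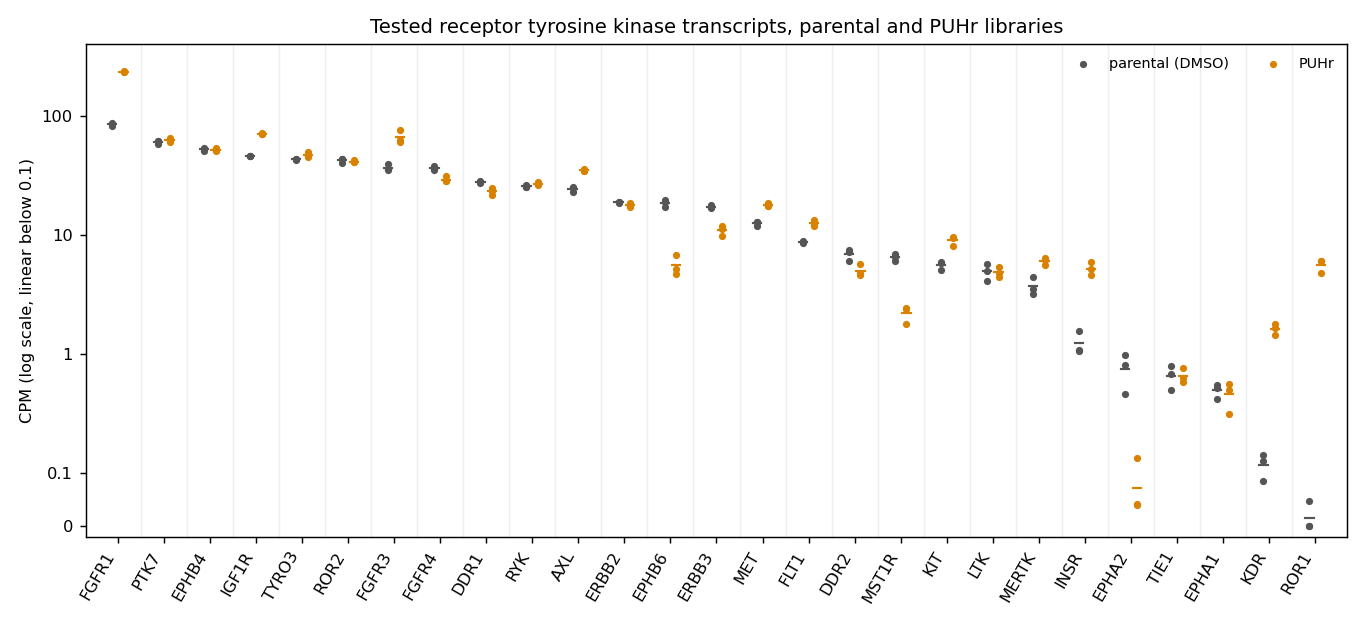
Level of the 27 tested receptors in parental and PUHr libraries, in CPM on a log scale that is linear below 0.1; each point is 1 library, each short line the mean of 3, and genes are ordered by their mean in parental cells. FGFR1 separates at the top of the range, and INSR, EPHA2, KDR and ROR1 at the bottom.

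The receptors' ligands, adaptors and negative regulators were listed from general knowledge of the pathway. Of 28 tested ligands, 3 rose and 6 fell in HSP90α-KO and 4 rose and 1 fell in HSP90β-KO, and in PUHr 8 rose and 3 fell of 30 tested, or 32.1%, 17.9% and 36.7% where 10.3%, 4.48% and 10.1% of all tested genes changed. Some of them (PDGFD and IGF1 in HSP90α-KO, PDGFA in HSP90β-KO, FGF5 and PDGFB in PUHr) reached the test's minimum in 1 of the groups only, and of the ligands that reached it in both, 2 rose and 5 fell of 24, 3 rose and 1 fell of 25, and 7 rose and 2 fell of 28. The median log2 fold change of the ligands was -0.36, 0.05 and 0.10 in the 3 comparisons. FGF2, basic fibroblast growth factor and a ligand of FGFR1, had 318 to 460 reads in EV, 75 to 85 in HSP90α-KO and 796 to 978 in HSP90β-KO. It fell by 2.01 on the log2 scale (SE 0.075, adjusted p = 4.4e-18) in HSP90α-KO and rose by 1.17 (adjusted p = 1.3e-12) in HSP90β-KO, a difference between the knockouts of -3.18 (SE 0.075, adjusted p = 1.2e-22). In PUHr, where FGFR1 rose, FGF2 also rose, by 1.37 (adjusted p = 5.1e-12); it was chosen there after its value was seen.

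The listed ligands that fell in HSP90α-KO were FGF2, EGF, GAS6 and, outside the naming rule, FGF13, IGF1 and EFNA3 (-1.65, -1.56 and -1.07), and those that rose were AREG and, outside the rule, EFNB1 (1.84) and PDGFD, with 0 to 3 reads in EV and 35 to 37 in HSP90α-KO. Among them were EGF, a ligand of EGFR, with 63 to 97 reads in EV and 10 to 11 in HSP90α-KO (-2.45, SE 0.16, adjusted p = 1.1e-12), and GAS6, the ligand of AXL, with 1134 to 1523 against 334 to 394 (-1.68, SE 0.054, adjusted p = 2.1e-19). GAS6 thus fell in the cells in which AXL rose. AREG, amphiregulin, rose there by 1.08 (adjusted p = 2.5e-08) and fell in PUHr by 2.09 (adjusted p = 1.1e-09). PDGFC, a ligand of the PDGF receptors, rose in HSP90β-KO from 1.79 to 5.09 CPM (adjusted p = 4.3e-08) and fell in PUHr by 1.69 (adjusted p = 9.9e-08), where PDGFA rose from 55 to 61 reads to 323 to 374 (2.48, adjusted p = 5.8e-11) although its receptors PDGFRA and PDGFRB had at most 8 reads in any library. EFNB1, ephrin B1, rose in PUHr by 1.92 and FGF17 by 1.38 (adjusted p = 2.1e-06 and 2.7e-05). IGF1, a ligand of IGF1R named after its values were seen, had 6 to 12 reads in EV, 0 to 4 in HSP90α-KO and 73 to 75 in HSP90β-KO, and 6 to 12 in parental against 34 to 53 in PUHr. FGF13 counts as a ligand by the list alone, and its binding to a receptor was not measured.

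Of the adaptors, 2 rose and 2 fell of 30 tested in HSP90α-KO, 0 of 30 changed in HSP90β-KO by limma and 0 by voom (11 passed by adjusted p alone and 15 at an unadjusted p under 0.05), and 5 rose and 4 fell of 31 in PUHr. These are 13.3%, 0% and 29%, beside 10.3%, 4.48% and 10.1% of all tested genes. The PUHr falls include DOK2, which reached the minimum in 1 group only. IRS1, the docking protein of INSR and IGF1R, had 185 to 245 reads in EV, 13 to 21 in HSP90α-KO and 318 to 388 in HSP90β-KO, and fell by 3.32 on the log2 scale in HSP90α-KO (SE 0.13, adjusted p = 6.4e-18), where IGF1R fell as well. In PUHr, IRS1 rose from 127 to 136 reads to 553 to 636 (2.12, SE 0.082, adjusted p = 2.8e-11), beside the rise of INSR. SHC2, an SHC adaptor, fell by 1.71 in HSP90α-KO and rose by 2.45 in PUHr (adjusted p = 2.4e-16 and 3.1e-11). DOK4, a docking protein, rose by 2.29 in HSP90α-KO (adjusted p = 2.5e-11). In PUHr the SH2/SH3 adaptor NCK2 rose by 2.36 (adjusted p = 2.8e-11), while PLCG2, a phospholipase of blood cells, VAV1, a signalling protein of blood cells, and GAB3 fell, with log2 fold changes of -3.03, -2.94 and -1.77 (adjusted p = 2.2e-12, 2e-13 and 2.7e-13).

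Of 26 tested negative regulators, 3 rose and 1 fell in HSP90α-KO and 1 rose and 1 fell in HSP90β-KO, and of 27 in PUHr 4 rose and 3 fell. These are 15.4%, 7.69% and 25.9%, beside 10.3%, 4.48% and 10.1% of all tested genes. The PUHr falls include LRIG3, which reached the minimum in 1 group only. The ubiquitin ligase CBLB and the ERBB inhibitor ERRFI1 rose in HSP90α-KO, each by 1.07 (adjusted p = 2.8e-12 and 3.1e-07). UBASH3B, a phosphatase that acts on tyrosine kinases, went from 728 to 917 reads in EV to 144 to 164 in HSP90α-KO (-2.14, SE 0.057, adjusted p = 4.2e-21), and rose in PUHr by 1.26 (adjusted p = 9.5e-13). SH3KBP1, a CBL partner in receptor uptake, rose in PUHr from 61 to 67 reads to 520 to 614 (3.03, adjusted p = 1.3e-12), and the phosphatase PTPRK by 1.90 (adjusted p = 2e-08). PTPRB, the vascular endothelial phosphatase, fell from 23.3 to 3.3 CPM in PUHr (-2.79, adjusted p = 2e-12). In the knockouts, where it lay outside the naming rule, PTPRB had 43 to 48 reads in EV, rose to 94 to 114 in HSP90α-KO (1.38, adjusted p = 0.00012) and fell to 3 to 12 in HSP90β-KO (-2.35, adjusted p = 1.1e-07).

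**Figure D4:**
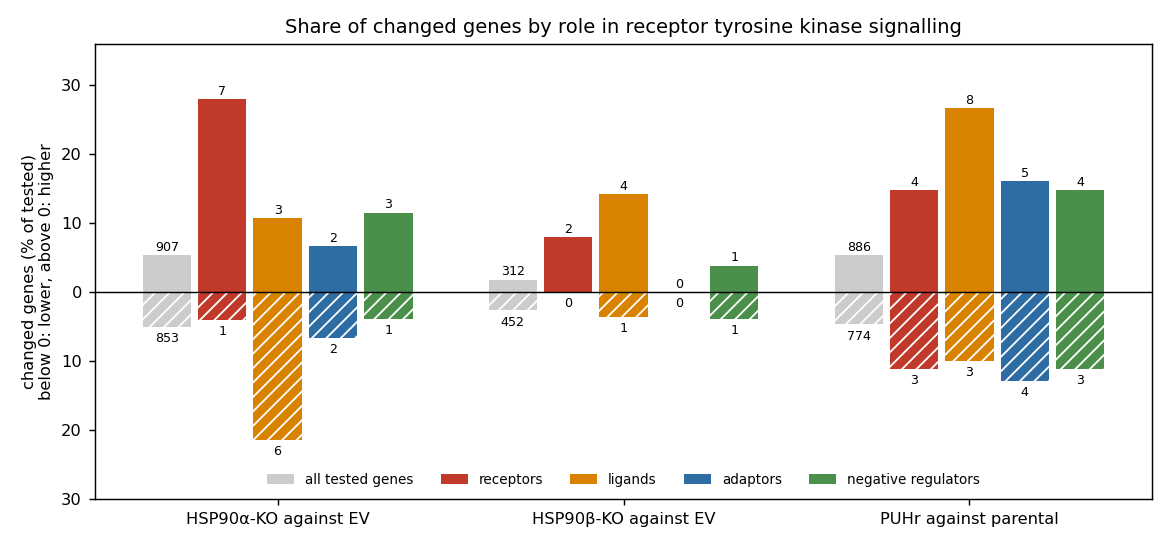
Changed genes as a share of the tested genes of each role, in percent, higher above 0 and lower (hatched) below 0, with the number of genes at each bar. Of the receptors in HSP90α-KO 7 rose and 1 fell, whereas of the listed ligands 3 rose and 6 fell. EPHB6, ERBB4, FLT4 and TIE1, among the receptors, could be tested only because they were high outside EV.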

How the data were processed

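RNA was sequenced from 15 K562 libraries, 3 in each of 5 groups taken from the sample labels. The submitters' processing notes name FastQC, MultiQC, STAR, featureCounts, edgeR and hg38, with versions and the strand setting of the counting not given in the sources used here. The tables the authors deposited hold log2 CPM values with a prior count, 1 table for each experiment. Whole reads could be recovered from 100% of the low values checked (within 0.05 of a read), and higher values were rounded without that check. Entries without a gene identifier (30 and 114, at most 0.0363% of reads) were left out. The planned test was written for such log2 values: limma 3.58.1 (R 4.3.3) with an intensity trend, 1 fit per table, Benjamini-Hochberg over all tested genes, with a call at 0.05 on the adjusted p and a fold change past 1 in log2 units. No test was made across tables. Fits that left out a library kept the same tested genes. Tables and figures used Python 3.11.15, pandas 2.3.3, scipy 1.17.1 and matplotlib 3.10.9. An exact permutation test of 3 libraries against 3 cannot give a p under 0.1 and was not used.

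Coordinates and exon lengths are GENCODE 44 (GRCh38), and windows before gene starts are RefSeq's (GRCh38.p14), found for 47 of the 50 receptors. Counting intervals are exact 95% binomial ones on summed reads. Receptors were given by library where called or among the 5 highest of a table in average log2 CPM. EGFR, TEK, EPHA4 and EPHB2, too low to be tested, were given by library outside this rule. List genes were named if among the 3 largest rises or falls called whose average log2 CPM was at least 1, and others were said to be chosen later. The receptors and lists were chosen with earlier results of these data known. Alternatives changed the filter, pseudocount, scaling, variance model, threshold, libraries and the replicate block; the fit was tested on simulated data.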

Additional observations from a re-analysis of the deposited data

How the results depend on the processing

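The number of changed receptors depended on how low transcripts were treated. In HSP90α-KO against EV it was 8, and became 3 when receptors averaging under 1 in log2 CPM were dropped, 5 with a pseudocount of 1 CPM, 2 with one of 5 CPM and 18 by adjusted p alone. In HSP90β-KO against EV it was 2, and became 1, 1 and 1 under the same filter and pseudocounts and 12 by adjusted p alone. Between the knockouts it was 9, and became 4, 5, 2 and 19 in that order. In PUHr against parental it was 7, and became 4 with that filter, 6 with a pseudocount of 1 CPM (without EPHA2), 3 with one of 5 CPM and 19 by adjusted p alone; without any filter EPHA4 was added, making 8. Fewer genes are tested under the stricter filter and a pseudocount shrinks low folds by construction. On leaving out each library in turn the numbers ranged from 8 to 8, 2 to 3, 8 to 9 and 7 to 7. With a replicate block they were 8, 2, 9 and 7; same-numbered libraries had correlations of -0.184 to 0.066 and -0.024 to 0.099 in their deviations, so the numbers were not read as pairs, and the block changed no other call but that of TYRO3 between the knockouts (adjusted p = 0.064). Voom on recovered reads gave 8, 2, 8 and 7; over all tested genes it called 931 higher and 1001 lower in HSP90α-KO and 1032 and 772 in PUHr, where limma on the log2 values called 907 and 853, and 886 and 774. No receptor with an adjusted p under 0.05 reversed under any alternative run, and IGF1R stayed between -1.47 and -1.29 and KIT between 1.59 and 2.06 in HSP90α-KO. Depth limits FLT4, ERBB4 and EPHB6 in the knockout table and EPHA2, KDR and ROR1 in the resistance table, whose lower group had at most 3 reads in each library.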
